A study of Mus musculus with 13 samples.

Results

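The chemokines and chemokine receptors on the array were followed across fibroblasts, induced embryonic Sertoli cells and native gonad or Sertoli cell samples. The family was taken by name: every gene whose platform symbol is Ccl, Cxcl, Ccr or Cxcr with a number, together with Cx3cl1, Cx3cr1, Xcl1, Xcr1 and Ackr3, which the platform lists as Cxcr7. This rule found 53 genes of the 20738 named on the array, 35 ligands and 18 receptors, measured by 76 features. It used no measured value.

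RNA from mouse cells and tissue was hybridised to 13 Cy3-labelled Agilent arrays in 7 groups. Mouse embryonic fibroblasts (MEF) were wild type with an empty vector, and tail tip fibroblasts (TTF) were wild type with a tdTomato transgene; 2 arrays held each, after 3 passages in medium with 10% serum. The induced cells (ieSC) carried 5 transgenes, Nr5a1, Wt1, Dmrt1, Gata4 and Sox9, which had been put into fibroblasts, and had been kept for 6 months in 2% serum with 2 mg/ml doxycycline. They came from TTF on 2 arrays and from MEF on 1 array. The wild-type native samples, on 2 arrays each and without a transgene, were the whole male gonad at 14.5 dpc (days post coitum, not cultured), immature Sertoli cells of 19 dpc testis cultured for 3 days and mature Sertoli cells of 8-week testis cultured for 7 days, both in 10% serum. Serum, culture time and doxycycline differed between fibroblasts and ieSC together with the factors, so these cannot be told apart.

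Chemokines are small secreted proteins that direct the movement of cells, and they act through receptors coupled to G proteins. Inflammatory chemokines are switched on by cytokines and microbial products and draw neutrophils or monocytes into tissue. Homeostatic chemokines such as Cxcl12 are made steadily by stromal cells and guide stem cells, lymphocytes and, in the embryo, primordial germ cells on their way to the gonad. Sertoli cells are the supporting cells of the seminiferous tubule, where germ cells mature.

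The values are deposited log2 signals, which had the same median (7.488) and maximum (18.872) on every array. A value at or under the median is dim, and the size of a difference from such a value depends on a background treatment that is not known. Marker lists described the samples. The mean log2 signal of 10 fibroblast markers was 15.43 to 15.44 in MEF and 16.13 to 16.20 in TTF, against 9.98 in MEF-ieSC and 10.02 on both TTF-ieSC arrays. A list of 14 Sertoli markers averaged 8.42 to 9.44 in the fibroblasts, 11.97 to 12.29 in ieSC and 13.46 to 13.61 in the cultured Sertoli cells. It holds Nr5a1, Wt1, Gata4 and Sox9, which were also transgenes of the ieSC, so the ieSC mean is no independent sign of a Sertoli state. The part of the transgenes in that mean was not tested. Within that list Amh (7.30 to 7.42) and Gata4 (6.70 to 7.15) were under the array median on the 3 ieSC arrays, and Amh was so in mature Sertoli cells too (6.22 to 6.95). Native Sertoli cultures also carried other cells' markers, since the fibroblast list averaged 13.58 to 14.41 and 15 macrophage markers averaged 9.48 to 9.70 there.

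**Figure D1:**
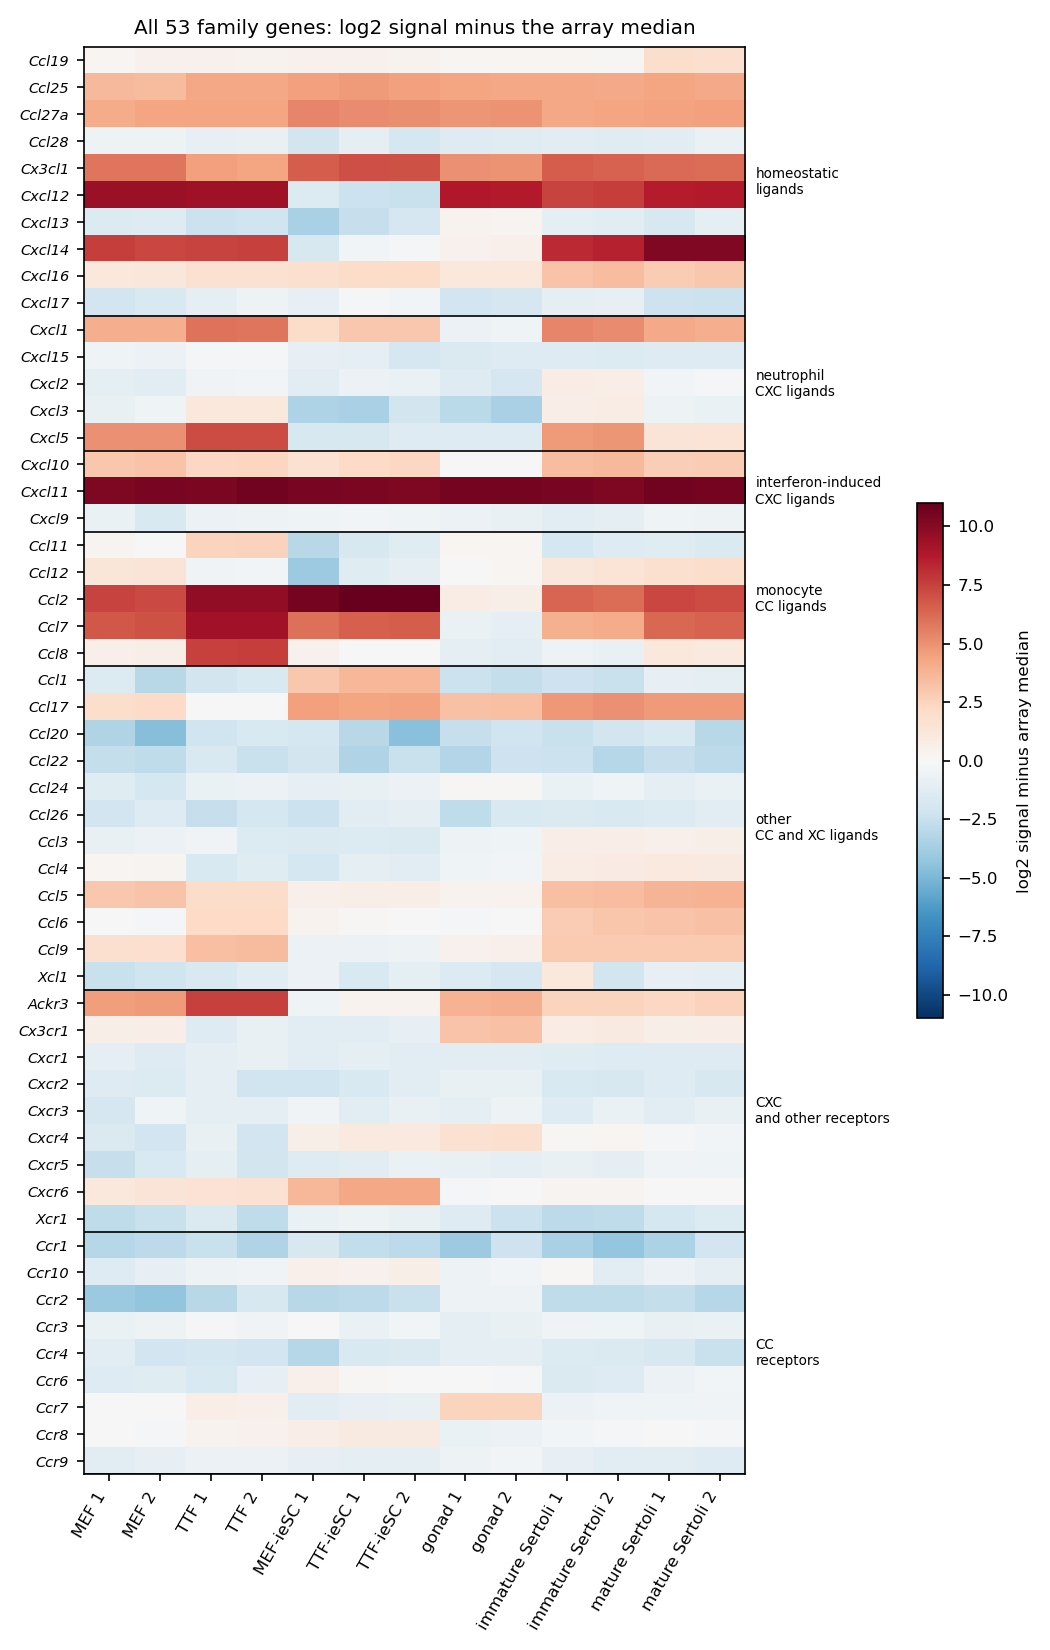
Log2 signal minus the array median for all 53 family genes (rows, ordered by role) on the 13 arrays (columns, by group and replicate number); red is above and blue below the median. Cxcl12, Cxcl14, Cxcl5 and Ackr3 are bright in fibroblasts and pale or blue in ieSC, Ccl2 is darkest in ieSC, and most receptor rows stay near or under the median on every array.

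Of the 53 genes, 35 (27 ligands and 8 receptors) exceeded the array median on at least 2 arrays and were tested, and 18 (8 ligands and 10 receptors) did not. Among the tested genes, 8 were above the median on every array: Ccl2, Ccl5, Ccl19, Ccl25, Ccl27a, Cx3cl1, Cxcl16 and Cxcl11, the last on a feature whose reading is uncertain (given with the interferon-induced ligands). A gene could enter the test through a single group, as Ccl24 and Cxcl13 did through the gonad, Cxcl2 through the immature Sertoli cells, and Ccl1 and Ccr6 through ieSC. Counts over the tested genes therefore describe these 35 and not the whole family.

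A gene was called where the adjusted p of the limma fit over all 16658 tested genes was under 0.05. In TTF-ieSC against TTF, 28 of the 35 were called, 13 higher and 15 lower in ieSC, where 74.7% of all genes tested were called (39.5% higher and 35.2% lower). In MEF-ieSC against MEF, 30 were called, 14 higher and 16 lower, against 67.9% of all genes (34.3% and 33.6%). These shares, 80% and 85.7%, lie close to the background of a comparison in which most genes differ. Differences of 2 or more on the log2 scale were more frequent in the family than over the array: 16 of 35 in TTF-ieSC against TTF, where 16.1% of all genes passed, and 16 of 35 in MEF-ieSC against MEF, where 13.9% did. The median difference of the tested family genes was -0.03 and -0.17, beside 0.06 and 0.01 over all tested genes.

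The induction from TTF and the induction from MEF share no array. In both, 26 family genes were called, 12 higher in both, 12 lower in both, and 2 in opposite directions (7.69%); over all genes 1156 of 9449 genes called in both had opposite directions (12.2%). The genes lower in both were Ackr3, Ccl5, Ccl7, Ccl9, Ccl11, Ccl12, Ccr7, Cxcl1, Cxcl3, Cxcl5, Cxcl12 and Cxcl14. Those higher in both were Ccl1, Ccl2, Ccl17, Ccl25, Ccl27a, Ccr6, Ccr8, Ccr10, Cx3cl1, Cxcl16, Cxcr4 and Cxcr6. Among them Ccl1 and Ccr6 had entered the test through ieSC alone, so their calls in this direction add no support. The opposite pair was Ccl4 and Ccl6. The size of the change itself differed between the inductions, by the test of that difference, for 19 of the 35 genes, 9 with a more positive and 10 with a more negative value from TTF, beside 54.1% of all genes (28.9% and 25.2%).

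**Figure D2:**
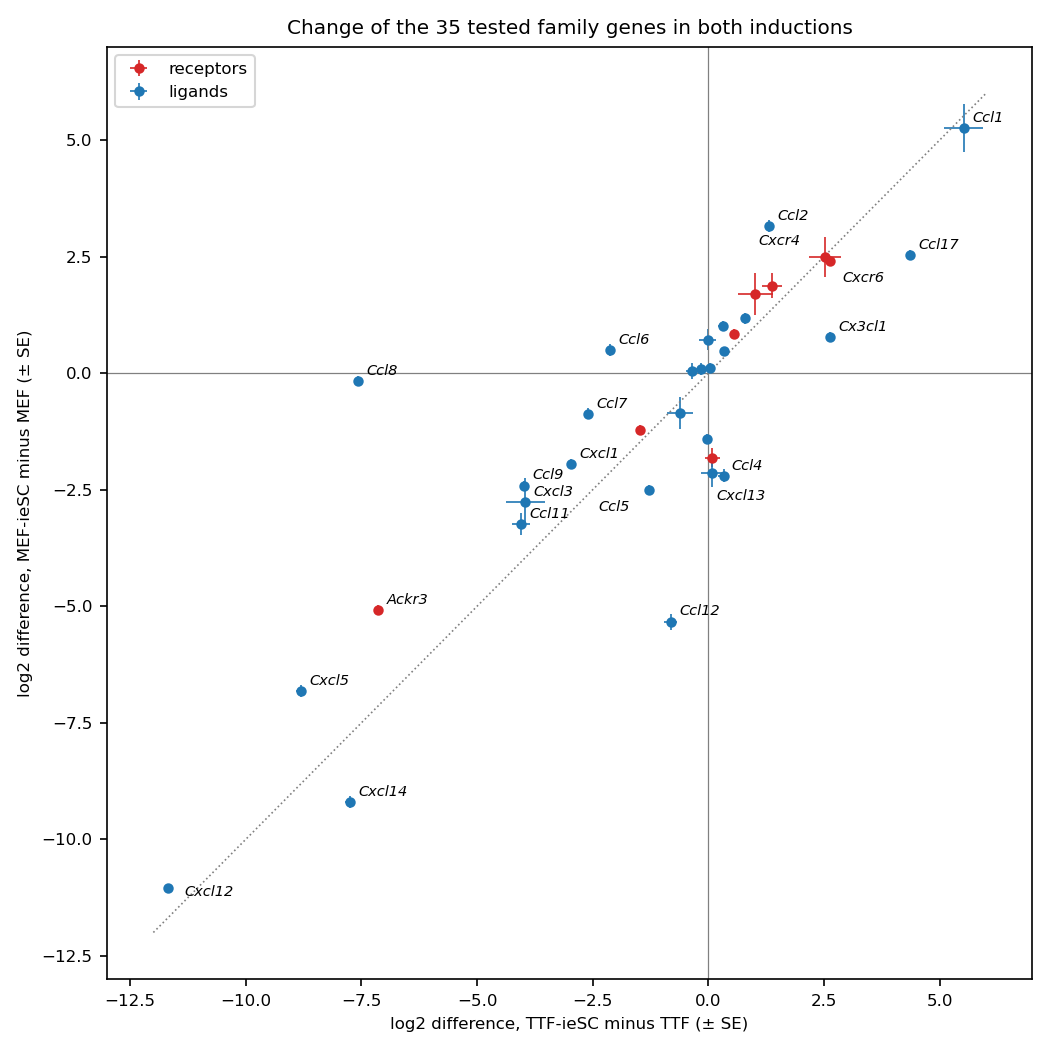
Log2 difference of the 35 tested family genes in TTF-ieSC minus TTF (horizontal axis) and MEF-ieSC minus MEF (vertical axis), with standard errors of the fit; ligands are blue, receptors red, and the dotted line marks equal differences. Cxcl12, Cxcl14, Cxcl5 and Ackr3 lie at the lower left (-5.08 or lower on both axes), Ccl1 at the upper right (5.52 and 5.26), and Ccl8 and Ccl12 far from the dotted line.

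Among the homeostatic ligands, Cxcl12 and Cxcl14 were lower in ieSC than in fibroblasts of either origin, while Cx3cl1, Cxcl16, Ccl25 and Ccl27a were higher. Of the 10 genes in this role 8 were tested, of which 4 were called higher and 2 lower in TTF-ieSC, and 4 higher and 3 lower in MEF-ieSC. Over all genes, 39.5% were higher and 35.2% lower from TTF, and 34.3% and 33.6% from MEF. Cxcl12, the ligand of Cxcr4 and Ackr3, had log2 signals of 17.00 and 17.01 in MEF, 16.77 and 16.79 in TTF, 5.96 in MEF-ieSC, 5.12 and 5.08 in TTF-ieSC, 16.27 and 16.23 in gonad, 14.93 and 15.13 in immature and 16.16 and 16.23 in mature Sertoli cells. The 3 ieSC arrays lay under the array median and every other array was among the bright values, with no overlap. The difference was -11.68 ± 0.07 (SE) in TTF-ieSC against TTF (adjusted p = 6.47e-12) and -11.04 ± 0.08 in MEF-ieSC against MEF (adjusted p = 3.66e-11). The other Cxcl12 feature gave -11.05 and -8.69. In the order of group means only gonad and mature Sertoli cells were not called apart (adjusted p = 0.503), although the small difference of TTF from MEF (-0.22 ± 0.07, adjusted p = 0.0183) was not called when any MEF or TTF array was left out (adjusted p 0.0521 to 0.0683). Its direction depends on the feature, since the other feature gave 0.90 and the mean of features 0.34 (adjusted p = 0.0968), neither called, and the mean of features also places mature Sertoli cells above gonad.

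Cxcl14, a chemokine of epithelia and stroma, showed another pattern across the native samples. Its log2 signal was 15.13 and 14.80 in MEF, 14.96 and 14.99 in TTF, 5.76 in MEF-ieSC, 7.20 and 7.26 in TTF-ieSC, 7.98 and 8.03 in gonad, 15.73 and 15.94 in immature and 17.65 and 17.64 in mature Sertoli cells. The ieSC and the gonad were at the bottom of the range and the mature Sertoli cells at the top. The ieSC differed from fibroblasts by -7.74 ± 0.11 (TTF origin, adjusted p = 6.45e-11) and -9.20 ± 0.13 (MEF origin, adjusted p = 2.07e-10). The fibroblast markers given above were lower in ieSC too, and their part in the differences of Cxcl12 and Cxcl14 was not tested.

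The start sites of Cxcl12 and Cxcl14 are shown because both ligands were under the array median on all ieSC arrays after bright signals in fibroblasts. Their windows also hold more CpG, the dinucleotide at which DNA is methylated, than the median window, as do those of some genes that rose. Each line is the sense strand from 50 bases before the start to 49 bases after it, taken from RefSeq on GRCm38.p6, with every CpG in capitals; the Cxcl12 stretch is chr6:117168485-117168584 on the plus strand and the Cxcl14 stretch chr13:56296502-56296601 on the minus strand.
Cxcl12: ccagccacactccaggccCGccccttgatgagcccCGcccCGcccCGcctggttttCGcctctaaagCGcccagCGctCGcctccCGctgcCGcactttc
Cxcl14: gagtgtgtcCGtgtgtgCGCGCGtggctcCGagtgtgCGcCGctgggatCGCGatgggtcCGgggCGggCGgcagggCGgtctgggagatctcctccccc
The stretches hold 10 and 13 CpG. Promoter windows of 300 bases were matched for 39 of the 53 genes (43 windows). The full window of Cxcl12 had 20 CpG and that of Cxcl14 had 22, where the median was 7 over 32851 RefSeq windows and 4 over the family's windows. Of all windows, 73.5% and 76.9% had fewer CpG than these. Among genes higher in both inductions, Cxcr4 had 20, Cx3cl1 19 and 1 of the Ccl25 windows 52, while Ccl1 had 7 and Ccl17 and Cxcr6 had 3 each. Methylation was not measured here.

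Cx3cl1 (fractalkine), a chemokine tethered to the cell membrane, was bright in every group. It measured 13.37 and 13.38 in MEF, 11.98 and 11.83 in TTF, 14.16 in MEF-ieSC, 14.59 and 14.50 in TTF-ieSC, 12.55 and 12.41 in gonad, 14.13 and 13.99 in immature and 13.73 and 13.59 in mature Sertoli cells. The TTF arrays were the lowest and the TTF-ieSC arrays the highest. The difference was 2.64 ± 0.08 from TTF (adjusted p = 9.66e-09) and 0.78 ± 0.10 from MEF (adjusted p = 0.000182). MEF-ieSC and immature Sertoli cells were not called apart (adjusted p = 0.431).

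Smaller rises of homeostatic ligands were seen in Ccl27a (0.80 ± 0.10 from TTF, 1.18 ± 0.12 from MEF) and Cxcl16 (0.35 ± 0.07 and 0.48 ± 0.09), which is the ligand of Cxcr6. All 3 features of Ccl27a were called higher in both inductions. Ccl25, a ligand of Ccr9 known from thymus and gut, gave 0.31 ± 0.09 from TTF (adjusted p = 0.0113) and 1.02 ± 0.11 from MEF. The first of these calls was lost without TTF replicate 2 (0.28, adjusted p = 0.0586) and without TTF-ieSC replicate 1 (0.23, adjusted p = 0.0828). Cxcl13, a B cell chemoattractant, measured 6.02 and 6.04 in MEF, 5.11 and 5.26 in TTF, 3.89 in MEF-ieSC, 4.94 and 5.61 in TTF-ieSC, 7.88 and 7.76 in gonad, 6.48 and 6.36 in immature and 5.72 and 6.40 in mature Sertoli cells. Only the gonad was above the median. It differed by 0.09 ± 0.25 from TTF (adjusted p = 0.745) and by -2.14 ± 0.30 from MEF (adjusted p = 0.000252), the latter between dim values. Ccl19 lay between 7.63 and 7.98 on its brightest feature in all groups other than mature Sertoli cells (9.42 and 9.21). Another feature read 7.59 on both gonad arrays and 5.54 and 5.87 in TTF-ieSC, so the sign of Ccl19 in TTF-ieSC against gonad turned from 0.28 (adjusted p = 0.0227) to -0.44 (adjusted p = 0.000375) with the mean of features.

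The receptors of Cxcl12 moved in opposite directions. Ackr3, which binds Cxcl12 and removes it without signalling through G proteins, had log2 signals of 12.07 and 12.18 in MEF, 14.99 on both TTF arrays, 7.04 in MEF-ieSC, 7.85 on both TTF-ieSC arrays, 11.32 and 11.45 in gonad, 9.95 on both immature and 9.79 and 10.02 on the mature Sertoli arrays. The ieSC arrays were the lowest of all. The difference was -7.14 ± 0.08 from TTF (adjusted p = 2.82e-11) and -5.08 ± 0.10 from MEF (adjusted p = 9.74e-10).

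Cxcr4, the signalling receptor of Cxcl12 that primordial germ cells carry, measured 5.87 and 5.38 in MEF, 6.65 and 5.34 in TTF, 8.12 in MEF-ieSC, 8.53 and 8.52 in TTF-ieSC, 9.18 and 9.25 in gonad, 7.58 and 7.67 in immature and 7.32 and 7.20 in mature Sertoli cells. All ieSC arrays were above the median and all fibroblast arrays below it. The ieSC were higher by 2.53 ± 0.35 (TTF origin, adjusted p = 0.000177) and 2.49 ± 0.43 (MEF origin, adjusted p = 0.000879). In the order gonad, TTF-ieSC, MEF-ieSC, immature and mature Sertoli cells no neighbours were called apart. When either TTF array was left out, TTF-ieSC was called below gonad (-0.69, adjusted p = 0.00289) and MEF-ieSC above immature Sertoli cells (0.49, adjusted p = 0.0379). In whole tissue and mixed cultures, fewer cells of a type and less RNA per cell cannot be told apart, and 6 germ cell markers averaged 14.03 to 14.04 in the gonad, 10.17 to 10.22 and 9.09 to 9.43 in immature and mature Sertoli cells, and 5.97 to 6.53 in ieSC. Their part in the gonad's Cxcr4 level was not tested.

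Cx3cr1, the fractalkine receptor of macrophages and microglia, was brightest in the gonad (10.60 and 10.71), followed by immature (8.32 and 8.46) and mature Sertoli cells (8.14 and 8.19) and MEF (8.10 and 8.19). It was under the median in TTF (6.10 and 6.67), TTF-ieSC (6.37 and 6.57) and MEF-ieSC (6.34). The difference was -1.81 ± 0.20 from MEF (adjusted p = 5.31e-05) and 0.09 ± 0.16 from TTF (adjusted p = 0.638); the latter became 0.37 (adjusted p = 0.016) without TTF replicate 2. Its ligand and this receptor were thus not at their highest in the same groups.

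Cxcr6, a receptor of activated T cells that binds Cxcl16, was higher in ieSC than in any other group. Its values were 8.62 and 8.91 in MEF, 9.10 and 9.15 in TTF, 11.18 in MEF-ieSC, 11.77 and 11.74 in TTF-ieSC, 7.37 and 7.42 in gonad, 7.78 and 7.77 in immature and 7.41 and 7.47 in mature Sertoli cells. No ieSC array overlapped with another group. The rise was 2.63 ± 0.09 from TTF (adjusted p = 1.05e-08) and 2.41 ± 0.10 from MEF (adjusted p = 1.17e-07), and the other Cxcr6 feature gave 2.55 and 2.23. Cxcr6 overlaps Fyco1 in RefSeq, and whether a feature can read both genes was not tested.

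**Figure D3:**
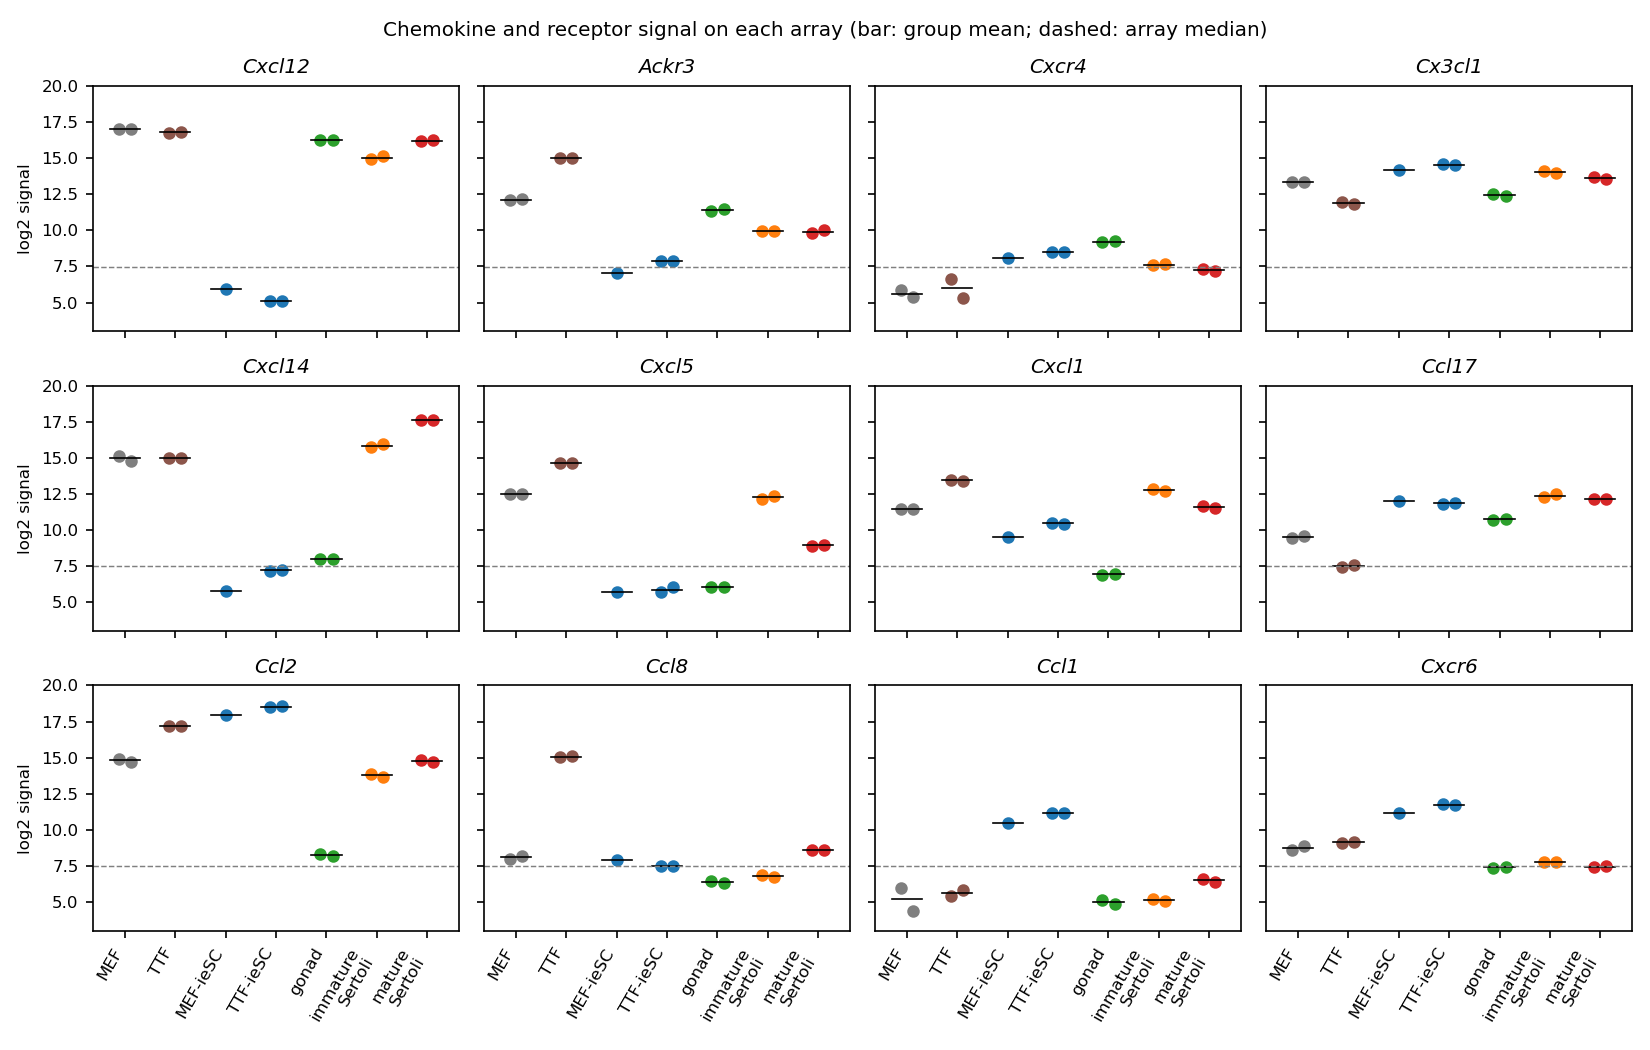
Log2 signal of 12 family genes on each array (points) by group, with the group mean as a bar and the array median of 7.488 as a dashed line. The 3 ieSC arrays are the lowest for Cxcl12, Ackr3 and Cxcl5, and the highest for Ccl1, Ccl2, Cx3cl1 and Cxcr6; Ccl8 is above 15 in TTF alone.

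The CXC ligands that attract neutrophils through Cxcr2 were lower in ieSC. Of 5 genes 4 were tested. All 4 were called lower in TTF-ieSC, with a median of -3.47, where 35.2% of all genes were lower and their median was 0.06. In MEF-ieSC 3 were called lower, with a median of -2.36, beside 33.6% of all genes and a median of 0.01. Cxcl5 measured 12.52 and 12.50 in MEF, 14.67 on both TTF arrays, 5.69 in MEF-ieSC, 5.69 and 6.03 in TTF-ieSC, 6.06 and 6.08 in gonad, 12.18 and 12.38 in immature and 8.93 and 8.97 in mature Sertoli cells. It was bright in fibroblasts and immature Sertoli cells and dim in ieSC and gonad. The difference was -8.81 ± 0.11 from TTF (adjusted p = 3.49e-11) and -6.82 ± 0.13 from MEF (adjusted p = 8.33e-10). TTF-ieSC and gonad were not called apart (adjusted p = 0.101), although they were without TTF-ieSC replicate 2 (adjusted p = 0.00492).

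Cxcl1 measured 11.45 on both MEF arrays, 13.49 and 13.39 in TTF, 9.50 in MEF-ieSC, 10.49 and 10.44 in TTF-ieSC, 6.88 and 6.99 in gonad, 12.85 and 12.68 in immature and 11.65 and 11.51 in mature Sertoli cells. It stayed above the median in ieSC. The change was -2.97 ± 0.08 from TTF (adjusted p = 3.04e-09) and -1.95 ± 0.10 from MEF (adjusted p = 2.93e-07). Cxcl3 measured 6.67 and 7.02 in MEF, 8.61 and 8.67 in TTF, 4.08 in MEF-ieSC, 3.92 and 5.44 in TTF-ieSC, 4.50 and 3.88 in gonad, 8.25 and 8.33 in immature and 6.95 and 6.76 in mature Sertoli cells. Only the TTF and immature Sertoli arrays were above the median, and the TTF-ieSC replicates lay far apart. Its differences were -3.96 ± 0.42 and -2.77 ± 0.52. Cxcl2 was above the median in immature Sertoli cells alone (8.28 and 8.25), so its changes in ieSC lie between dim values. It gave -0.35 ± 0.14 from TTF at an adjusted p of 0.0487, and 0.04 ± 0.17 from MEF. The call from TTF was lost when any array other than those of gonad or MEF-ieSC was left out.

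Cxcl3, Cxcl15, Cxcl1 and Cxcl2 are neighbours in this order on chromosome 5. Cxcl1, Cxcl2 and Cxcl3 are shown from before the NF-κB-type motif to just past the start, since each holds the same motif close to its start. Cxcl1 and Cxcl3 were called higher in immature Sertoli cells than in gonad. Cxcl2 was too, but it entered the test through the immature Sertoli arrays alone, so its call there adds no support. Capitals mark GGAATTTCC, a form of the sequence that NF-κB binds; all stretches are on the plus strand of GRCm38.p6 (RefSeq) and end 9 bases after the start, at chr5:90891145-90891254 for Cxcl1, chr5:90903779-90903908 for Cxcl2 and chr5:90786001-90786110 for Cxcl3.
Cxcl1: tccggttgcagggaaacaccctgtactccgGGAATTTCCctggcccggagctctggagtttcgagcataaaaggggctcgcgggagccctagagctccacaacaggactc
Cxcl2: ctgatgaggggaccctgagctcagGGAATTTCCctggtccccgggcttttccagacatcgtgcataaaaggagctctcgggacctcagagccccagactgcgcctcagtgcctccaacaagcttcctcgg
Cxcl3: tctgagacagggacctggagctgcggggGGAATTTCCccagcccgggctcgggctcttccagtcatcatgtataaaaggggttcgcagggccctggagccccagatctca
The matches lie 70 to 62 bases before the start in Cxcl1, 96 to 88 in Cxcl2 and 72 to 64 in Cxcl3. On both strands the motif was found in 0.317% of the 32851 windows of 300 bases (104 windows), and in 5 of the family's 43, the others being those of Cxcl10 and Ccr3. A match describes these letters and is not a measured binding site.

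The interferon-induced CXC ligands act on Cxcr3 and attract T cells. Cxcl10 measured 10.46 and 10.66 in MEF, 9.73 and 9.81 in TTF, 9.15 in MEF-ieSC, 9.72 and 9.74 in TTF-ieSC, 7.42 and 7.57 in gonad, 10.90 and 11.09 in immature and 10.19 and 10.28 in mature Sertoli cells. The TTF and TTF-ieSC arrays overlapped. The difference was -0.03 ± 0.09 from TTF (adjusted p = 0.748) and -1.41 ± 0.11 from MEF (adjusted p = 6.54e-06); the other Cxcl10 feature, not called, gave -0.24 in the latter. Its window holds GAAANNGAA, a core of the sequence that interferon regulatory factors bind, as do 8.56% of all windows (both strands); among the family's 43 windows 8 hold it, those of Ccl1, Ccl3, Ccl19, Ccr2, Cxcl9, Cxcl10, Cxcl14 and Cxcr1. The features annotated to Cxcl11 were nearly flat, with 17.74 to 18.09 over the 13 arrays on the brightest and 11.47 to 12.19 on the other. Whether the brightest, near the array maximum, reports Cxcl11 was not tested, as its sequence was not used here. Differences were -0.16 ± 0.10 from TTF (adjusted p = 0.17) and 0.09 ± 0.12 from MEF (adjusted p = 0.537); without TTF replicate 1 the former was -0.28 (adjusted p = 0.0383). Cxcl10 and Cxcl11 both overlap Art3 in RefSeq, and whether a feature can read Art3 was not tested.

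The monocyte and eosinophil CC ligands Ccl2, Ccl7, Ccl11, Ccl12 and Ccl8 lie next to each other on chromosome 11, followed by Ccl1. They did not move together. Of the 5 monocyte ligands, Ccl2 was higher in both inductions. In TTF-ieSC 4 were lower and in MEF-ieSC 3, where 35.2% and 33.6% of all genes were lower.

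Ccl2 (MCP-1), the main attractant of monocytes, measured 14.90 and 14.73 in MEF, 17.22 and 17.21 in TTF, 17.98 in MEF-ieSC, 18.51 and 18.55 in TTF-ieSC, 8.31 and 8.16 in gonad, 13.88 and 13.65 in immature and 14.86 and 14.69 in mature Sertoli cells. The ieSC arrays were the highest and approached the array maximum of 18.872, while the gonad stood far below every cultured sample. Ccl2 was higher by 1.32 ± 0.10 from TTF (adjusted p = 2.73e-06) and by 3.16 ± 0.12 from MEF (adjusted p = 5.02e-08). All 10 Ccl2 features were called higher, with 1.15 to 1.51 and 3.02 to 3.30. The table carries no saturation flags, so whether the highest values are limited by the scanner was not tested.

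Ccl7 (MCP-3) measured 14.29 and 14.45 in MEF, 16.71 on both TTF arrays, 13.51 in MEF-ieSC, 14.07 and 14.16 in TTF-ieSC, 6.74 and 6.52 in gonad, 11.38 and 11.53 in immature and 13.82 and 13.95 in mature Sertoli cells. Like Ccl2 it was dim in gonad and bright in all cultures, but its ieSC values lay below those of the fibroblasts, with differences of -2.60 ± 0.09 (TTF origin, adjusted p = 2.21e-08) and -0.87 ± 0.12 (MEF origin, adjusted p = 0.000186). Ccl11 (eotaxin) measured 7.83 and 7.53 in MEF, 9.96 and 10.02 in TTF, 4.44 in MEF-ieSC, 5.74 and 6.13 in TTF-ieSC, 7.67 and 7.66 in gonad, 5.53 and 6.08 in immature and 6.16 and 5.90 in mature Sertoli cells. Its differences were -4.05 ± 0.20 (adjusted p = 1.61e-07) and -3.24 ± 0.24 (adjusted p = 4.31e-06), and TTF-ieSC and immature Sertoli cells, both dim, were not called apart (adjusted p = 0.56).

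Ccl8 and Ccl12 differed most between the inductions. Ccl8 (MCP-2) measured 8.01 and 8.17 in MEF, 15.04 and 15.09 in TTF, 7.92 in MEF-ieSC, 7.50 and 7.48 in TTF-ieSC, 6.44 and 6.35 in gonad, 6.90 and 6.70 in immature and 8.62 and 8.57 in mature Sertoli cells. TTF alone was bright. The change was -7.58 ± 0.08 from TTF (adjusted p = 2.17e-11), with -0.17 ± 0.10 from MEF (adjusted p = 0.156). Ccl12 (MCP-5) measured 8.81 and 8.87 in MEF, 7.11 and 7.20 in TTF, 3.51 in MEF-ieSC, 6.16 and 6.54 in TTF-ieSC, 7.46 and 7.69 in gonad, 8.75 and 9 in immature and 9.23 and 9.40 in mature Sertoli cells. It changed by -0.81 ± 0.14 from TTF and by -5.33 ± 0.17 from MEF (adjusted p = 1.82e-08), to the lowest of its values on the MEF-ieSC array.

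Ccl1, a ligand of Ccr8, was dim everywhere except in ieSC. It measured 5.99 and 4.41 in MEF, 5.45 and 5.82 in TTF, 10.47 in MEF-ieSC, 11.17 and 11.14 in TTF-ieSC, 5.13 and 4.83 in gonad, 5.22 and 5.08 in immature and 6.62 and 6.39 in mature Sertoli cells. The ieSC arrays stood apart from the other 10. The rise was 5.52 ± 0.42 from TTF (adjusted p = 2.90e-06) and 5.26 ± 0.51 from MEF (adjusted p = 2.26e-05), with TTF-ieSC and MEF-ieSC not called apart (adjusted p = 0.435). Ccl1 had entered the test through the ieSC arrays alone, so its calls as higher in ieSC add no support. A stretch upstream of Ccl1 is shown because Ccl1 was the member with the largest rise in each induction. It covers chr11:82179933-82180032 on the minus strand of GRCm38.p6 (RefSeq), and capitals mark GGAANTTCC, a looser NF-κB form that reads the same on both strands and takes in GGAATTTCC.
Ccl1: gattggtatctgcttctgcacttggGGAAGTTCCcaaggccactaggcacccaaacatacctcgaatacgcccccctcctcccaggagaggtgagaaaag
The match lies 195 to 187 bases before the start. GGAANTTCC was found in 0.928% of all windows (305) and in those of 7 family genes, Ccl1, Ccl12 and the 5 with the stricter form.

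**Figure D4:**
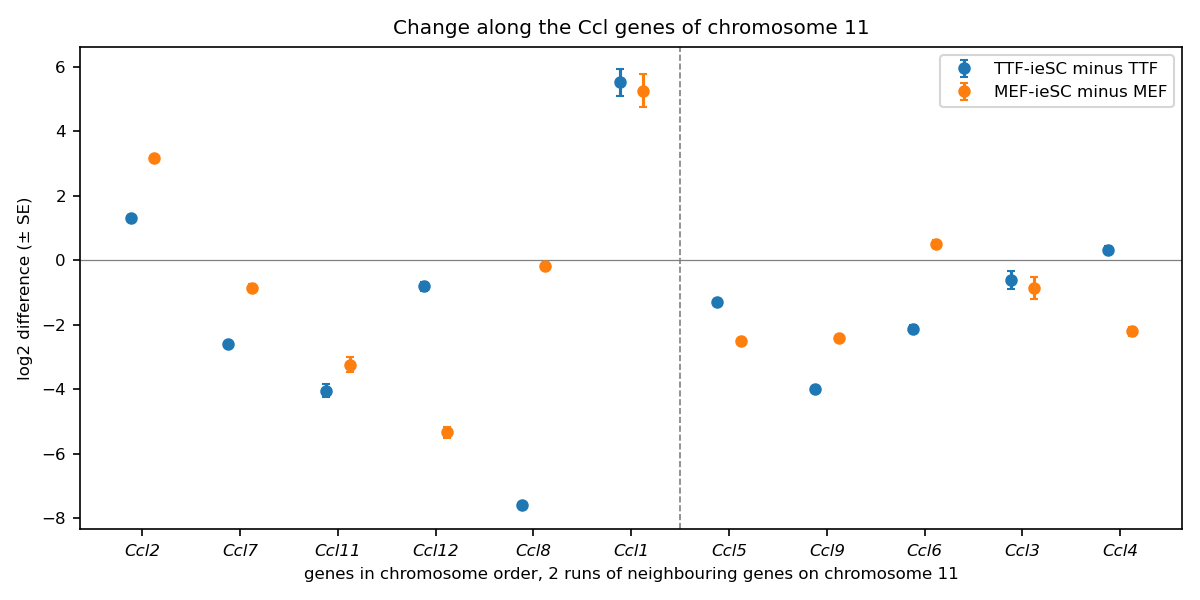
Log2 difference (points, with standard errors of the fit) of 11 Ccl genes in their order along chromosome 11, in TTF-ieSC minus TTF (blue) and MEF-ieSC minus MEF (orange); the dashed line separates the 2 runs of neighbouring genes. Neighbours differ in direction: Ccl2 and Ccl1 at the ends of the left run are above 0 in both inductions, while Ccl7, Ccl11 and Ccl12 between them are below 0.

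The second run on chromosome 11 holds Ccl5, Ccl9, Ccl6, Ccl3 and Ccl4, ligands made largely by macrophages and lymphocytes. Ccl5 (RANTES) measured 10.41 and 10.65 in MEF, 9.47 on both TTF arrays, 8.04 in MEF-ieSC, 8.14 and 8.22 in TTF-ieSC, 7.89 and 7.91 in gonad, 10.78 and 10.88 in immature and 11.22 and 11.30 in mature Sertoli cells. Ccl9 measured 9.26 and 9.32 in MEF, 10.77 and 11 in TTF, 6.88 in MEF-ieSC, 6.86 and 6.94 in TTF-ieSC, 7.94 and 8.01 in gonad, 10.35 and 10.37 in immature and 10.37 and 10.40 in mature Sertoli cells. Both were lower in ieSC than in fibroblasts and Sertoli cultures, without overlap. Ccl5 changed by -1.29 ± 0.08 from TTF (adjusted p = 8.82e-07) and -2.50 ± 0.10 from MEF (adjusted p = 6.76e-08), and Ccl9 by -3.99 ± 0.08 (adjusted p = 4.55e-10) and -2.41 ± 0.10 (adjusted p = 6.86e-08).

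Ccl6 and Ccl4 were called in opposite directions. Ccl6 measured 7.50 and 7.30 in MEF, 9.67 and 9.71 in TTF, 7.90 in MEF-ieSC, 7.60 and 7.54 in TTF-ieSC, 7.35 and 7.48 in gonad, 10.31 and 10.54 in immature and 10.60 and 10.70 in mature Sertoli cells. The ieSC arrays lay between 7.54 and 7.90, near MEF and below TTF, and the change was -2.12 ± 0.10 from TTF (adjusted p = 9.97e-08) and 0.50 ± 0.12 from MEF (adjusted p = 0.00519). Ccl4 (MIP-1β) measured 7.70 and 7.76 in MEF, 5.85 and 6.19 in TTF, 5.53 in MEF-ieSC, 6.42 and 6.27 in TTF-ieSC, 6.98 and 7.18 in gonad, 8.32 and 8.42 in immature and 8.55 and 8.51 in mature Sertoli cells. It changed by -2.20 ± 0.14 from MEF (adjusted p = 1.58e-06) and gave 0.33 ± 0.12 from TTF (adjusted p = 0.0306), a call at dim values. It was lost when TTF replicate 1 (0.16, adjusted p = 0.212) was left out, and likewise for TTF-ieSC replicate 1 (0.26, adjusted p = 0.152). Ccl3 (MIP-1α), which overlaps Ccl4 in RefSeq, was above the median in the Sertoli cultures alone (8.05 to 8.19) and gave -0.62 ± 0.28 from TTF (adjusted p = 0.0732) and -0.86 ± 0.34 from MEF (adjusted p = 0.0542); without TTF replicate 2 the former was -1.18 (adjusted p = 4.67e-06), and when either TTF array was left out the latter had an adjusted p of 3.54e-05.

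Macrophage markers varied across the same samples as these ligands and Cx3cr1, and the orders were alike only in part. The mean of 15 markers was 8.68 to 8.75 in MEF, 7.86 to 7.91 in TTF, 7.25 in MEF-ieSC, 7.16 to 7.28 in TTF-ieSC, 8.83 to 8.87 in gonad, 9.48 to 9.53 in immature and 9.69 to 9.70 in mature Sertoli cells. The number of markers above the median was 11, 7, 4, 4, 12, 13 and 14 in these groups. The marker mean was lower in TTF than in MEF, as were Ccl4, Ccl5 and Cx3cr1. Ccl6 and Ccl9 were higher in TTF, and Ccl3 was not called. In gonad the marker mean was above that of the fibroblasts, as were the means of Cx3cr1 and Ccl3. For Ccl3 all these values were dim, and TTF replicate 1 (7.12) was above both gonad arrays (6.95 and 6.98). Ccl9 was below both fibroblast groups in gonad, and Ccl4 and Ccl6 lay between them. Ccl5 had its lowest mean in gonad, not called apart from that of MEF-ieSC (adjusted p = 0.241). The Sertoli cultures had the highest marker means and the highest Ccl3, Ccl4, Ccl5 and Ccl6. The 4 markers above the median in ieSC were Csf1r (11.16 to 11.70), Itgam (13.05 to 13.19), C1qb (8.08 to 8.35) and Cd14, which at 11.39 to 11.87 was above its level in MEF (9.82 to 9.86) and TTF (10.48 to 10.59). The other 11 were below it, among them Lyz2 (5.09 to 5.78) and C1qa (5.87 to 6.16). The part of macrophages in the ligands' levels was not tested.

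Ccl17 (TARC), a ligand of Ccr4, neighbours Ccl22 and Cx3cl1 on chromosome 8. It measured 9.42 and 9.56 in MEF, 7.44 and 7.56 in TTF, 12.04 in MEF-ieSC, 11.84 and 11.89 in TTF-ieSC, 10.67 and 10.80 in gonad, 12.29 and 12.48 in immature and 12.13 and 12.17 in mature Sertoli cells. The ieSC values lay within 1 log2 unit of those of the cultured Sertoli cells, and MEF-ieSC and mature Sertoli cells were not called apart (adjusted p = 0.355). Immature Sertoli cells were called higher than TTF-ieSC (0.52, adjusted p = 0.000525) and MEF-ieSC (0.35, adjusted p = 0.015). The latter call was lost in the fit on the compared arrays alone. Mature Sertoli cells were called higher than TTF-ieSC (0.28, adjusted p = 0.015). The rise was 4.37 ± 0.09 from TTF (adjusted p = 4.33e-10) and 2.54 ± 0.10 from MEF (adjusted p = 8.10e-08). Its neighbour Ccl22 was under the median on all 13 arrays, at 4.21 to 5.80. Ccl24 was above the median in gonad alone (7.58 and 7.65).

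The CC receptors are carried mostly by leukocytes, and 5 of the 9 were too dim to test. Ccr7, the receptor of Ccl19 on dendritic cells and T cells, was brightest in gonad (9.94 and 9.93) and lower in ieSC (6.30, 6.55 and 6.70) than in MEF (7.50 and 7.54) or TTF (8.20 and 8.02), with differences of -1.22 ± 0.10 and -1.48 ± 0.08 (adjusted p = 9.11e-06 and 4.24e-07). Ccr6, the receptor of Ccl20, measured 8.01 in MEF-ieSC and 7.62 and 7.50 in TTF-ieSC, with rises of 1.88 ± 0.26 and 1.38 ± 0.21 over fibroblasts that were under the median on all 4 arrays. Since Ccr6 had entered the test through ieSC alone, these calls add no support. Ccr8, the receptor of Ccl1, rose by 0.56 ± 0.08 from TTF and 0.84 ± 0.10 from MEF, to 8.21 to 8.49 in ieSC; its other feature gave 2.67 and -1.32, the latter not called, so the MEF result depends on the feature. Ccr10, a receptor of Ccl27a, gave 1.02 ± 0.37 from TTF (adjusted p = 0.0345) and 1.70 ± 0.46 from MEF (adjusted p = 0.0099). The first of these was not called when any TTF or TTF-ieSC array was left out (adjusted p 0.0658 to 0.13).

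The fibroblasts of the 2 origins differed in this family before induction. In TTF against MEF 26 of the 35 tested genes were called, 17 higher and 9 lower in TTF, where 66.6% of all genes were called (31.1% and 35.5%). Of these, 7 differed by 2 or more (20%, against 5.63% of all genes), all higher in TTF: Ccl8 (6.97 ± 0.08), Ackr3 (2.87 ± 0.08), Ccl2 (2.40 ± 0.10), Ccl7 (2.34 ± 0.09), Ccl11 (2.31 ± 0.20), Ccl6 (2.29 ± 0.10) and Cxcl5 (2.16 ± 0.11). Genes lower in TTF included Ccl17 (-1.99 ± 0.09), Ccl4 (-1.71 ± 0.12), Ccl12 (-1.68 ± 0.14) and Cx3cl1 (-1.47 ± 0.08). The 4 tested neutrophil ligands were all higher in TTF.

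Between the ieSC of the 2 origins fewer genes were called, with 1 MEF-ieSC array. In TTF-ieSC against MEF-ieSC 14 of 35 were called, 12 higher and 2 lower in TTF-ieSC, against 14.3% of all genes (7.53% and 6.76%). The largest were Ccl12 (2.83 ± 0.17), Ccl11 (1.49 ± 0.24), Cxcl14 (1.47 ± 0.13) and Cxcl13 (1.39 ± 0.30), all at values under the median in both groups; Cxcl13 was not called without TTF-ieSC replicate 2 (adjusted p = 0.0521). When limma was fitted on these 3 arrays alone 0 were called, with 22 at an unadjusted p under 0.05.

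Among native samples, immature Sertoli cells in culture were set against the uncultured gonad. Here 30 of 35 were called, 20 higher and 10 lower in the Sertoli cells, where 70.5% of all genes were called (32.6% and 37.9%). All 4 tested neutrophil ligands were higher, with Cxcl5 at 6.21 ± 0.11, Cxcl1 at 5.84 ± 0.08 and Cxcl3 at 4.10 ± 0.42. Cxcl2 had entered the test through the immature Sertoli arrays alone, so its call in this direction adds no support. Also higher were Cxcl14 (7.83 ± 0.11), Ccl2 (5.53 ± 0.10), Ccl7 (4.82 ± 0.09) and Cxcl10 (3.50 ± 0.09). Lower were Ccr7 (-3.02 ± 0.08), Cx3cr1 (-2.27 ± 0.16), Cxcr4 (-1.59 ± 0.35), Ackr3 (-1.43 ± 0.08) and Cxcl12 (-1.22 ± 0.07). Ccl24 and Cxcl13 are also among the lower, but they had entered the test through the gonad arrays alone, so their calls add no support. Age, culture and cell makeup differ together here and cannot be told apart.

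Mature against immature Sertoli cells gave 19 of 35 called, 10 higher and 9 lower, where 68.5% of all genes were called (28.9% and 39.6%). Cxcl2 had entered the test through the immature Sertoli arrays alone. With it, the 4 tested neutrophil ligands were lower in mature cells, from Cxcl5 (-3.33 ± 0.11) to Cxcl2 (-1.04 ± 0.14). Among them Cxcl3 (-1.44 ± 0.42) was not called without immature Sertoli replicate 2 (adjusted p = 0.061) or mature Sertoli replicate 2 (adjusted p = 0.0683). Higher were Ccl7 (2.43 ± 0.09), Cxcl14 (1.81 ± 0.11), Ccl8 (1.79 ± 0.08), Ccl19 (1.63 ± 0.09, and up to 3.52 over its 3 features), Cxcl12 (1.16 ± 0.07) and Ccl2 (1.01 ± 0.10). The fibroblast marker mean was 14.35 to 14.41 in mature and 13.58 to 13.62 in immature cells, and its part in these differences was not tested.

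Against cultured immature Sertoli cells, ieSC had lower Cxcl12, Cxcl14 and Cxcl5 and higher Ccl1, Ccl2 and Cxcr6, where most genes on the array differed. In TTF-ieSC 32 of 35 were called, 13 higher and 19 lower (76.8% of all genes called, 37.8% and 39%), and in MEF-ieSC 29, 9 higher and 20 lower (70.6%, 34.4% and 36.2%); the comparisons share the immature Sertoli arrays. For TTF-ieSC and MEF-ieSC respectively, Cxcl12 differed by -9.93 ± 0.07 and -9.07 ± 0.08. Cxcl14 differed by -8.61 ± 0.11 and -10.07 ± 0.13, and Cxcl5 by -6.42 ± 0.11 and -6.60 ± 0.13. Ccl1 was higher by 6.01 ± 0.42 and 5.32 ± 0.51, Ccl2 by 4.77 ± 0.10 and 4.22 ± 0.12, and Cxcr6 by 3.98 ± 0.09 and 3.40 ± 0.10. The 4 tested neutrophil ligands were lower in both, Cxcl2 having entered the test through the immature Sertoli arrays alone. Likewise Ccl1 and Ccr6, called higher in both, had entered through ieSC alone, so those calls add no support.

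Against the gonad, 28 of 35 were called in TTF-ieSC, 16 higher and 12 lower, where 79.7% of all genes were called (38.2% and 41.5%). Ccl2 was higher by 10.30 ± 0.10, Ccl7 by 7.48 ± 0.09, Ccl1 by 6.18 ± 0.42 and Cxcr6 by 4.36 ± 0.09. The call of Ccl1, which had entered the test through ieSC alone, adds no support. Cxcl12 was lower, with a difference of -11.15 ± 0.07, as were Cx3cr1 (-4.19 ± 0.16) and Ccr7 (-3.31 ± 0.08). Ccl24 and Cxcl13, also called lower here, had entered the test through the gonad arrays alone, so their calls add no support. The 7 not called were Ccl6, Ccl27a, Ccr6, Cxcl3, Cxcl5, Cxcl11 and Cxcr4. With array weights Ccl27a (0.23, adjusted p = 0.0154), Cxcl11 (-0.23, adjusted p = 0.0167) and Cxcr4 (-0.69, adjusted p = 0.0317) were called. Cxcl3 gave 1.25 without TTF-ieSC replicate 1, and Cxcl5 gave -0.38 without TTF-ieSC replicate 2. The calls of Ccl5, Ccl19, Ccl25 and Ccr10 as higher were each lost under an alternative.

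Genes that act with the family were counted from lists of related genes, and the counts are to be read beside the 74.7% of all genes called from TTF (39.5% higher and 35.2% lower) and the 67.9% called from MEF (34.3% and 33.6%). Of 12 chemokines under other names and atypical receptors on the array 10 were tested, with 6 called higher and 4 lower in TTF-ieSC against TTF and 4 and 4 in MEF-ieSC against MEF. The platelet chemokines Ppbp (-6.85 ± 0.11 and -4.09 ± 0.14) and Pf4 (-2.32 ± 0.10 and -4.03 ± 0.12) fell, whereas Ccrl2 rose (1.40 ± 0.06 and 1.71 ± 0.07). Of 22 receptor signalling genes, all tested, 9 were higher and 6 lower from TTF, and 8 and 10 from MEF. The arrestins Arrb1 (2.28 ± 0.24 and 3.72 ± 0.29) and Arrb2 (2.75 ± 0.07 and 1.59 ± 0.08), which shut off and internalise the receptors, and the kinase Ptk2b (3.71 ± 0.06 and 3.86 ± 0.08) rose, while the G protein subunit Gnai2 fell (-1.29 ± 0.06 and -1.76 ± 0.08).

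Of 13 genes that cleave or bind chemokines outside the cell, all tested, 3 were higher and 10 lower from TTF, and 3 and 8 from MEF, where 35.2% and 33.6% of all genes were lower. Dpp4, the peptidase that inactivates Cxcl12 by trimming its end, rose by 4.79 ± 0.17 and 6.27 ± 0.21, while Mmp2, a metalloprotease that also cleaves Cxcl12, changed by -9.26 ± 0.08 and -9.29 ± 0.10. Of 31 cytokines, sensors and transcription factors upstream of chemokine genes 27 were tested, with 8 higher and 16 lower from TTF, and 5 and 14 from MEF, beside the same shares of all genes. The interleukin-1 receptor Il1r1 (-9.66 ± 0.65 and -7.37 ± 0.80), Il6 (-6.68 ± 0.11 and -4.90 ± 0.14), Tnfrsf1b (-4.25 ± 0.06 and -2.72 ± 0.07) and Tlr4 (-4.0 ± 0.09 and -2.77 ± 0.11) were among the lower. Il33 had the largest rise of this list (3.11 ± 0.05 and 3.15 ± 0.06). The NF-κB subunits differed in direction. Rela rose slightly (0.65 ± 0.07 and 0.58 ± 0.08) and Nfkb1 fell slightly (-0.34 ± 0.07 and -0.43 ± 0.08), while Nfkb2 and Relb were called higher from TTF alone.

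The 18 untested genes were the ligands Ccl20, Ccl22, Ccl26, Ccl28, Cxcl9, Cxcl15, Cxcl17 and Xcl1 and the receptors Ccr1, Ccr2, Ccr3, Ccr4, Ccr9, Cxcr1, Cxcr2, Cxcr3, Cxcr5 and Xcr1. Of these, 17 were above the median on no array, and their signals ranged from 2.80 upwards. The exception, Xcl1, passed it on 1 array. Among the receptors, Ccr2, which binds Ccl2, measured 3.16 to 6.94, and Cxcr2, which binds Cxcl1 and Cxcl5, measured 5.28 to 6.70.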

How the data were processed

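The log2 signals of 62976 features are as the authors deposited them, in 1 table with the same distribution on every array. limma is named in the submitters' processing notes, with no role. How features were extracted and corrected for background is not given in the sources used here. Platform annotation named 31465 features, and symbols were updated through RefSeq (GRCm38.p6); a gene took its brightest feature, which decided the value of 12 family genes with several features.

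A gene entered the test where 2 or more arrays exceeded the median of 7.488. All 13 arrays and 7 groups were fitted together in limma 3.58.1 (R 4.3.3, lmFit and eBayes), with 6 residual and 2.18 prior degrees of freedom. The two-sided tests were adjusted over 16658 genes (Benjamini-Hochberg), and errors are standard errors of the fit. For MEF-ieSC, with 1 array, the spread of the other groups was taken; a further array of it was not analysed here. The labels do not say if replicates are separate animals or cultures, so the p-values reflect the spread of these arrays alone, and that spread may be technical. The number of arrays limits the precision.

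Values on every array are given for genes called with a difference of 2 or more in an induction, for the Cxcl12 and fractalkine genes and for the highest members of each native or induced group; Cxcl10 was added after its values were seen. The genes, lists and alternatives were chosen with earlier results of these data known. The fit was tested on simulated data.

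Motifs were searched on both strands of RefSeq promoter windows of 300 bases. The alternatives changed the scaling (quantile, or each array's 75th percentile) and the filter (none, or the 75th percentile in place of the median). They also changed the feature rule (mean over a gene's features) and the variance model (trend with robust fitting, or array weights). The arrays were cut to the compared groups alone, or each was left out in turn. The scaling alternatives could change nothing, because every array already had the same distribution. Their unchanged results are therefore no sign of robustness.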

Additional observations from a re-analysis of the deposited data

Results flagged for a closer look

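The inductions share no array, so their difference (TTF-ieSC minus TTF, less MEF-ieSC minus MEF) was tested for each gene in the same limma fit. It was called for 19 of the 35 tested family genes, 9 positive and 10 negative, where 54.1% of all genes were called. All rest on 1 MEF-ieSC array.

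Among the CC ligands the difference was -7.40 for Ccl8, 4.51 for Ccl12, -2.62 for Ccl6, 2.53 for Ccl4, -1.84 for Ccl2, 1.82 for Ccl17, -1.73 for Ccl7, -1.58 for Ccl9, 1.21 for Ccl5 and -0.70 for Ccl25. Among the CXC and other ligands it was 2.24 for Cxcl13, -1.99 for Cxcl5, 1.86 for Cx3cl1, 1.46 for Cxcl14, 1.37 for Cxcl10, -1.02 for Cxcl1 and -0.64 for Cxcl12. The receptors gave -2.06 for Ackr3 and 1.89 for Cx3cr1.

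The fibroblasts themselves differed in the opposite direction in several of these genes. Ccl8, for example, was 6.97 higher in TTF than in MEF, while the ieSC differed by -0.43, a call lost when either TTF-ieSC array was left out. For Ccl12 the ieSC differed more, by 2.83. The call for Ccl25 was lost with the mean of its 3 features (adjusted p = 0.239).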

How the results depend on the processing

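Requiring a signal above the 75th percentile on 2 arrays left 21 family genes to test. Of these, 18 were called in TTF-ieSC against TTF, 19 in MEF-ieSC against MEF and 17 in TTF against MEF. In immature Sertoli cells against gonad 18 were called, and against immature Sertoli cells 20 in TTF-ieSC and 19 in MEF-ieSC. These counts stand beside fewer genes tested, and the share of all genes called under this filter is not given here. The highest counts over the alternatives were 32 in TTF-ieSC against TTF and 35 in MEF-ieSC against MEF. These alternatives include the setting without a filter, in which all 53 family genes were tested, so the highest counts are not out of 35. On the compared arrays alone, TTF-ieSC against MEF-ieSC gave 0 calls in limma. Leaving out each array in turn gave 24 to 28 calls in TTF-ieSC against TTF, 30 to 31 in MEF-ieSC against MEF, 25 to 27 in TTF against MEF, 10 to 15 in TTF-ieSC against MEF-ieSC, 30 to 31 in immature Sertoli cells against gonad and 17 to 21 in mature against immature. Against immature Sertoli cells it gave 28 to 32 in TTF-ieSC and 27 to 30 in MEF-ieSC, against gonad 25 to 29, and for the difference of the inductions 19 to 21. Of 477 values of 23 genes in TTF-ieSC against TTF, 467 kept direction and side of the threshold, as did 452 of 454 in MEF-ieSC against MEF. The sign turned, with no call at the turned value, for Cx3cr1 in TTF-ieSC against TTF (-0.16 with the mean of features, -0.19 without TTF replicate 1 and -0.01 without TTF-ieSC replicate 2, in a leave-one-out range of -0.19 to 0.37), Cxcl13 there (-0.24 without TTF-ieSC replicate 2, range -0.24 to 0.43) and Cxcl11 in MEF-ieSC against MEF (-0.01 without MEF replicate 1, range -0.01 to 0.19); the cause was not tested. No paired analysis was possible because the labels give no replicate numbers; those used here follow accession order. Comparisons with MEF-ieSC could not be fitted without its 1 array. The other comparisons were also fitted without it, but a lone array adds nothing to the spread, so that fit could change nothing. The unchanged values counted above include that fit, for TTF-ieSC against TTF, and the scaling alternatives, which could change nothing either. Signal over background is unknown, which limits every difference from a value under the median.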

Other observations

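A few family values stood in no comparison above. Xcl1, a ligand of T and NK cells, was above the median on 1 of 13 arrays, immature Sertoli replicate 1 (8.66), with a median of 5.96 over all arrays. In mature against immature Sertoli cells the 3 features of Ccl27a gave 0.05 to 1.73, with 1 called, so this gene's result there depends on the feature. The features of Ccl19 gave 1.63 to 3.52 in the same comparison, and all 3 were called higher.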
